A study of Mus musculus with 18 samples.

Results

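The genes that clear, break down or make GABA were followed through motor learning in astrocytes of the mouse primary motor cortex (M1). The set of 6 holds the GABA transporters Slc6a11 and Slc6a13, the breakdown enzymes Abat and Aldh5a1, and Maob and Aldh9a1, which belong to routes that make GABA from putrescine. They were chosen by name, for their role in the pathway, and are 6 of the 23924 genes of the deposited table. All 6 were present and all 6 passed the filter for testing, which was at least 1 FPKM in at least 6 of 18 libraries. FPKM counts fragments relative to transcript length and library size, so levels can be compared between genes.

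The study asked whether learning a motor skill alters gene expression in these astrocytes. C57BL/6 wild-type mice on restricted water were rewarded with a drop of water for moving a lever after a cue. Novice mice had 3 days of training and expert mice were fully trained, and both were compared with untrained naive mice, which the design text does not say were restricted of water. Each group had 6 libraries of motor cortex astrocytes, labelled 2 female and 4 male, from mice of 12 to 21 weeks (naive), 11 to 13 weeks (novice) and 13 to 15 weeks (expert). The labels do not say how the astrocytes were isolated or whether each library came from 1 animal, so p-values measure the spread between libraries.

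GABA is the main inhibitory transmitter of the cortex. Astrocytes take up GABA that leaves the synapse through sodium-coupled transporters of the Slc6 family and break it down in mitochondria, where a transaminase and then a dehydrogenase pass its carbon to the Krebs cycle as succinate. Astrocytes can also make GABA without glutamate decarboxylase, from putrescine. The steps of such routes include oxidations by monoamine oxidase B and by aldehyde dehydrogenases, which need not follow each other directly. GABA made in this way has been linked to tonic inhibition of neurons.

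All 18 astrocyte markers were detected in every group. Their summed level was 1763 to 6539 FPKM among naive, 1754 to 4335 among novice and 2386 to 8742 among expert libraries. Markers of other cells were present too. Over the 18 libraries, neuron markers summed to 74.1 to 547 FPKM and endothelial markers to 99.2 to 397. Oligodendrocyte markers summed to 52.2 to 236 FPKM and microglia markers to 13.1 to 57.7. The purity of the astrocytes was not tested. Libraries also differed in a background signal, measured as the mean FPKM over 1461 autosomal sensory receptor genes (olfactory, vomeronasal, taste and trace amine receptors) that most brain cells do not use. It ranged from 0.136 in expert 3 to 3.81 in naive 6 and fell into 2 classes. The lower class held 10 libraries (4 naive, 2 novice, 4 expert) and the higher class 8 (naive 5 and 6, novice 3 to 6, expert 4 and 5), so that novice and higher background went together in part. Expert 3 had the lowest background and the most genes at 0 (5430, against 2257 in the library with fewest). In novice 1 and novice 3 the sex-linked transcripts Xist and Ddx3y went against the labelled sex. The labels give no sequencing batch.

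Slc6a11 encodes GAT3, the GABA transporter most typical of astrocytes, which sits on processes around synapses. It was the most abundant of the 6 genes, above 96.2% of all genes of the table in naive libraries. Its level was 35.8 FPKM in the lowest naive library, 70.5 at the median and 99.2 in the highest. In novice libraries the same 3 values were 27.7, 34.3 and 62.7 FPKM, and in expert libraries 42.1, 72.5 and 164 FPKM. Thus 4 of 6 novice libraries were below every naive library and 4 of 6 expert libraries were above every novice library, while the groups overlapped in all 3 comparisons. The means were 68.2 ± 28.4 FPKM (SD, n = 6) among naive, 39.6 ± 14.1 among novice and 81.5 ± 43.8 among expert libraries. On the log2(FPKM + 1) scale, which understates the change of low genes, the fold change of novice against naive was -0.72 (SE 0.34; unadjusted p = 0.049, adjusted p = 0.89 in limma). Expert against novice it was 0.95 (SE 0.34; unadjusted p = 0.012, adjusted p = 0.45 in limma), and expert against naive 0.22 (SE 0.34; adjusted p = 1.0 in limma). None of the 3 passed the threshold of 0.05 after adjustment over all genes. Without expert 3 the value for expert against novice was 0.72.

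Slc6a13 encodes GAT2, which in brain is best known from the meninges and vessels and is abundant in liver and kidney. It was the least abundant member, at 3.89 ± 1.69 FPKM among naive (49.5% of the genes lay below it), 5.14 ± 3.06 among novice and 2.74 ± 1.15 among expert libraries. The lowest, median and highest values were 1.75, 4.56 and 5.35 FPKM among naive, 2.38, 3.85 and 10.6 among novice and 1.86, 2.25 and 4.77 among expert libraries. The highest value, 10.6 FPKM, was that of novice 6, and the groups overlapped. The median library held Slc6a13 at 1.86 times the receptor gene background (range 0.636 to 13.6), where Slc6a11 stood at 37.0 times. From the value of a single fragment, readable in the 17 libraries other than expert 3, Slc6a13 rested on about 8.03 fragments in the median library (2.76 to 19.3) and Slc6a11 on about 285 (78.6 to 599). Its fitted differences were 0.29 for novice against naive (SE 0.31; adjusted p = 0.89), -0.35 for expert against naive (SE 0.31; adjusted p = 1.0) and -0.64 for expert against novice (SE 0.31; unadjusted p = 0.055, adjusted p = 0.45), all from limma. Without novice 6 the value for novice against naive was 0.08. With novice 1 and novice 3 left out that value was 0.56, and with array weights, which give less weight to libraries of larger spread, 0.55. The sum over 7 meningeal and perivascular fibroblast markers was 16.5 to 38.1 FPKM among naive, 20.6 to 42.9 among novice and 17.4 to 35.0 among expert libraries, with Lum listed at 0 in 1 naive library. Of these 7 markers, 6 were higher in the novice than the naive mean, 2 of them at an unadjusted p under 0.05 (Slc13a4, 0.91, unadjusted p = 0.0051, and Slc47a1, 0.92, unadjusted p = 0.023) and 0 after adjustment in limma, with a median of 0.08 against 0.07 over all genes. Between expert and novice 5 of 7 were lower, 1 at an unadjusted p under 0.05, with a median of -0.38 against -0.14 over all genes. Of all genes, 4.6% had an unadjusted p under 0.05 in novice against naive and 10.9% in expert against novice (limma, either direction). The part of meningeal and perivascular fibroblasts in the Slc6a13 values was not tested.

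Abat encodes GABA transaminase, the first enzyme of GABA breakdown, which neurons carry as well. It was the member next to Slc6a11 in abundance, at 42.7 ± 22.0 FPKM among naive, 26.9 ± 10.9 among novice and 44.3 ± 18.5 among expert libraries. The lowest, median and highest libraries had 12.8, 50.4 and 66.9 FPKM among naive, 16.2, 22.7 and 42.8 among novice and 19.99, 45.9 and 65.0 among expert libraries. The lowest value of all belonged to naive 6, so that novice libraries lay inside the naive range. The log2 fold change was -0.51 for novice against naive (SE 0.40; adjusted p = 0.89 in limma), 0.67 for expert against novice (SE 0.40; adjusted p = 0.45) and 0.15 for expert against naive (SE 0.40; adjusted p = 1.0). Without naive 6 the novice value was -0.80, and without naive 2 it was -0.34. Summed over 7 neuron markers the level was 74.1 to 439 FPKM among naive, 99.6 to 547 among novice and 96.3 to 472 among expert libraries. The part of neurons in the Abat values was not tested.

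Aldh5a1 encodes succinic semialdehyde dehydrogenase, which takes the product of the transaminase to succinate. It stood at 16.0 ± 5.93 FPKM among naive, 10.6 ± 3.36 among novice and 15.8 ± 5.53 among expert libraries. The lowest, median and highest values were 7.63, 16.6 and 23.7 FPKM among naive, 7.10, 9.16 and 15.7 among novice and 8.70, 15.9 and 22.6 among expert libraries. Again all 6 novice libraries were below the naive median, but only 1 was below the lowest naive library. The log2 fold changes were -0.51 for novice against naive (SE 0.28; unadjusted p = 0.086, adjusted p = 0.89 in limma), 0.51 for expert against novice (SE 0.28; unadjusted p = 0.089, adjusted p = 0.45) and -0.0048 for expert against naive (SE 0.28; adjusted p = 1.0). The ratio of Aldh5a1 to Abat, both per length, had a median of 0.367 among naive, 0.412 among novice and 0.368 among expert libraries. In naive 6 it was 0.857, the highest of all libraries.

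Maob encodes monoamine oxidase B, an enzyme of the outer mitochondrial membrane that in brain is typical of astrocytes. It stood at 18.2 ± 8.28 FPKM among naive, 12.5 ± 2.44 among novice and 19.5 ± 8.63 among expert libraries. The lowest, median and highest values were 11.4, 15.5 and 33.4 FPKM among naive, 9.54, 12.1 and 16.9 among novice and 9.19, 16.9 and 34.4 among expert libraries. Naive 2 and expert 3 were the high libraries of their groups. For novice against naive the log2 fold change was -0.43 (SE 0.28; adjusted p = 0.89 in limma) and -0.24 without naive 2, and for expert against novice it was 0.51 (SE 0.28; adjusted p = 0.45) and 0.34 without expert 3. For expert against naive it was 0.09 (SE 0.28; adjusted p = 1.0 in limma), 0.28 without naive 2 and -0.09 without expert 3.

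Aldh9a1 encodes the aldehyde dehydrogenase that turns gamma-aminobutyraldehyde into GABA. It stood at 14.4 ± 4.07 FPKM among naive, 9.25 ± 1.22 among novice and 13.6 ± 3.43 among expert libraries. The lowest, median and highest values were 9.20, 13.9 and 21.4 FPKM among naive, 7.85, 9.17 and 10.9 among novice and 10.3, 13.2 and 19.8 among expert libraries. The novice libraries were close together, with a coefficient of variation of 13.2%, and all 6 lay below the median of both other groups; 3 were below every naive library, and 4 expert libraries were above every novice library. The log2 fold change was -0.55 for novice against naive (SE 0.20; unadjusted p = 0.012, adjusted p = 0.89 in limma), 0.49 for expert against novice (SE 0.20; unadjusted p = 0.025, adjusted p = 0.45) and -0.07 for expert against naive (SE 0.20; adjusted p = 1.0). Aldh9a1 had the narrowest interval of the members. In the median novice library it stood at 2.93 times the receptor gene background, against 7.39 among naive and 8.63 among expert libraries. Over the novice libraries it rested on about 19.0 fragments at the median (16.2 to 44.1). Aldh5a1 and Maob were at 3.14 and 4.36 times the background in the median novice library, against 11.1 and 11.4 among naive libraries. The part of the background in these values was not tested.

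**Figure D1:**
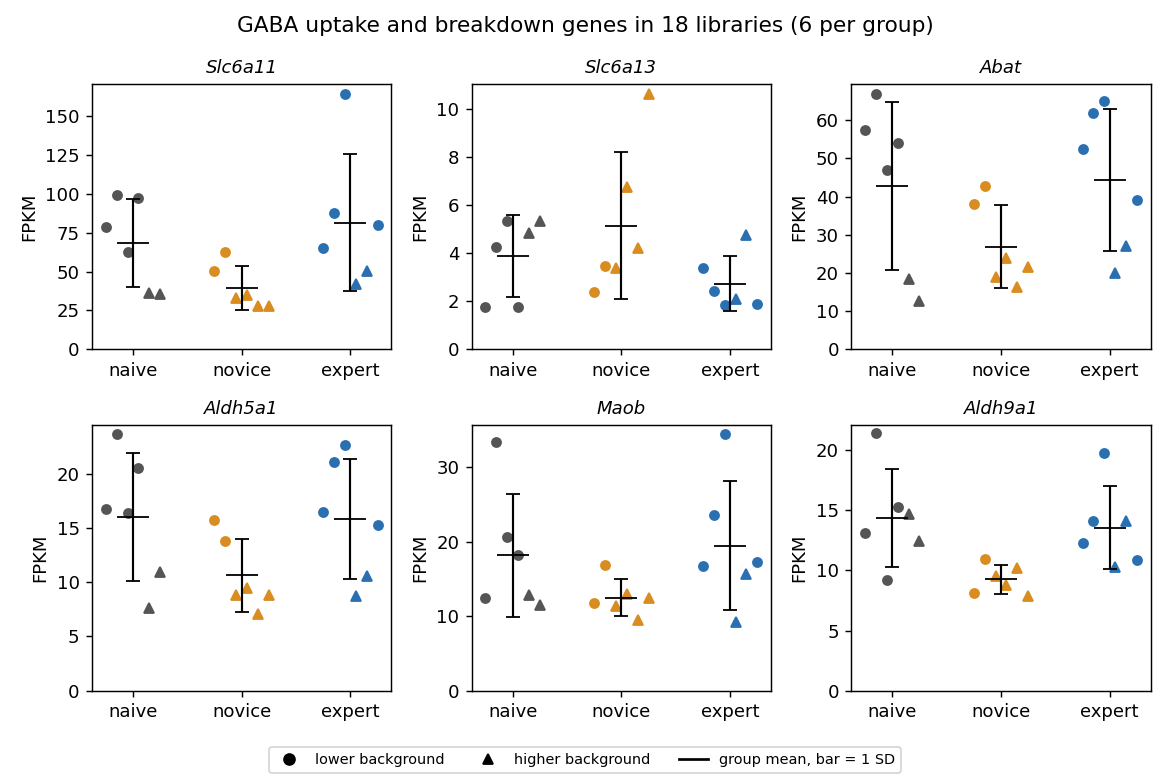
FPKM (vertical axes, from 0) of the 6 genes in naive, novice and expert libraries. Each point is 1 library, circles are the 10 libraries of lower background and triangles the 8 of higher background, and bars are the group mean and 1 SD (n = 6). For Slc6a11 the novice libraries reach from 27.7 to 62.7 and the expert libraries from 42.1 to 164, and triangles lie below circles in every group.

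The order of the members by mean level was Slc6a11, Abat, Maob, Aldh5a1, Aldh9a1 and Slc6a13 in all 3 groups. The ranges of neighbours in this order overlapped in each group, except that Slc6a13 was below every Aldh9a1 value in naive and expert libraries. Within a library, Slc6a11 was above Abat in 18 of 18 libraries, and Abat was above Aldh5a1 in 18 of 18.

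For Slc6a11, Aldh9a1 and Aldh5a1, whose means were lowest in novice libraries, the 250 bases before the annotated start are shown, so that what their promoters share can be read. The sequences are RefSeq's for build GRCm38.p6, given 5′ to 3′ on the strand of the gene, with the GC box GGGCGG in capitals. Slc6a11 (chr6:114130991-114131240, plus strand), Aldh9a1 (chr1:167349741-167349990, plus strand) and Aldh5a1 (chr13:24937662-24937911, minus strand) were as follows.
Slc6a11: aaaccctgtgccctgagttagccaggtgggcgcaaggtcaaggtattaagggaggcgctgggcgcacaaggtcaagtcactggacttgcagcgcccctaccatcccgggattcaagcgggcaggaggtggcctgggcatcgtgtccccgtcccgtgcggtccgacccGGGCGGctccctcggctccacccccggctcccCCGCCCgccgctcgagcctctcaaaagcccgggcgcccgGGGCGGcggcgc
Aldh9a1: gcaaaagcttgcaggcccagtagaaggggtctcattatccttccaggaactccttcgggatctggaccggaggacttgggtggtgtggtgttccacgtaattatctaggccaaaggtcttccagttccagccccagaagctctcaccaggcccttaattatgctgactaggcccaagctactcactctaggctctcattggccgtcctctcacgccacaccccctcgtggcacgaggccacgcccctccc
Aldh5a1: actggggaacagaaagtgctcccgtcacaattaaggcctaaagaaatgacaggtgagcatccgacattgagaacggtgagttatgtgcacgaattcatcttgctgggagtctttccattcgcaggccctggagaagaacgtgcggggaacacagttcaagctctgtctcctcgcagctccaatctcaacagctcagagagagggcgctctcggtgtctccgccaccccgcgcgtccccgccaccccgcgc
The RefSeq promoter table matched 4 of the 6 genes, the other being Slc6a13; Abat and Maob were without a match. The 3 windows differ in composition: the Slc6a11 window holds 25 CpG dinucleotides and 71.2% G and C, that of Aldh5a1 17 and 57.2%, and that of Aldh9a1 8 and 57.6%, where the median of all 32851 windows of this length is 6 CpG. On either strand the GC box occurs 3 times for Slc6a11 and 0 times for the other 2, and 32.7% of all windows hold it. An E-box (CANNTG) occurs 1 time each for Slc6a11 and Aldh5a1 and is held by 66.2% of all windows. The SOX core ACAAAG (16.5% of all windows), the NFI half-site TTGGCA (12.3%), the TATA box TATAAA (12.4%) and the cAMP response element TGACGTCA (1.55%) occur in none of the 3 windows. None of the motifs contains another. These are letters of the reference, and the data hold no measurement of binding.

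Read together by stage, 5 of the 6 genes had a lower mean in novice than in naive libraries, where 43% of the 21745 genes tested did, and Slc6a13 a higher one. The median log2 fold change was -0.51 over the members and 0.07 over all genes. Between expert and novice, 5 of 6 were higher and Slc6a13 lower, with a median of 0.51 over the members and -0.14 over all genes; 59.6% of all genes were lower. Between expert and naive 3 were higher and 3 lower, with a median of 0.04, against -0.05 over all genes and 56.1% of all genes lower. The comparisons with novice share the same 6 novice libraries, so both carry whatever sets those libraries apart. Abundant genes were lower in novice libraries in general: genes with a mean within 0.5 log2 units of Slc6a11 had a median of -0.24 for novice against naive and 0.29 for expert against novice, and those around Aldh9a1 -0.11 and 0.19. With expert 3, novice 1 and novice 3 left out, Slc6a11 stood at -0.78 and 0.78 and Aldh9a1 at -0.52 and 0.35.

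Of the 6 members 0 passed the adjusted threshold in any comparison, as did 0% of all genes tested with limma in each. At an unadjusted p under 0.05, Slc6a11 and Aldh9a1 were lower in novice than naive, 2 of 6 members where 1.88% of all genes were called lower and 4.6% in either direction. The same 2 genes were higher in expert than novice, where 4.88% of all genes were called higher and 10.9% in either direction. Between expert and naive the count was 0 of 6, against 2.86% of all genes. In the F test over the 3 groups each member had an adjusted p of 0.75, and again 0% of all genes passed, while 5.53% had an unadjusted p under 0.05. Groups that did not overlap were found for 0 of 6 members in each comparison and for 0.129%, 0.0782% and 0.432% of all genes in the comparisons of novice with naive, expert with naive and expert with novice. The 95% intervals reach from -1.44 to -0.0048 for Slc6a11 and from -0.97 to -0.13 for Aldh9a1 in novice against naive, so that a difference of 1 log2 unit lies inside the first and outside the second. For expert against naive the intervals were -0.49 to 0.94 for Slc6a11 and -0.48 to 0.35 for Aldh9a1. In simulated data with the same groups, limma recovered 24% of genes changed by 1 log2 unit and 85% of those changed by 2 log2 units for novice against naive. It also called 7 genes that were not changed. The simulated noise was independent between genes, without background classes, and only genes above the level of Slc6a13 were changed. The rates are therefore not those of these members.

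**Figure D2:**
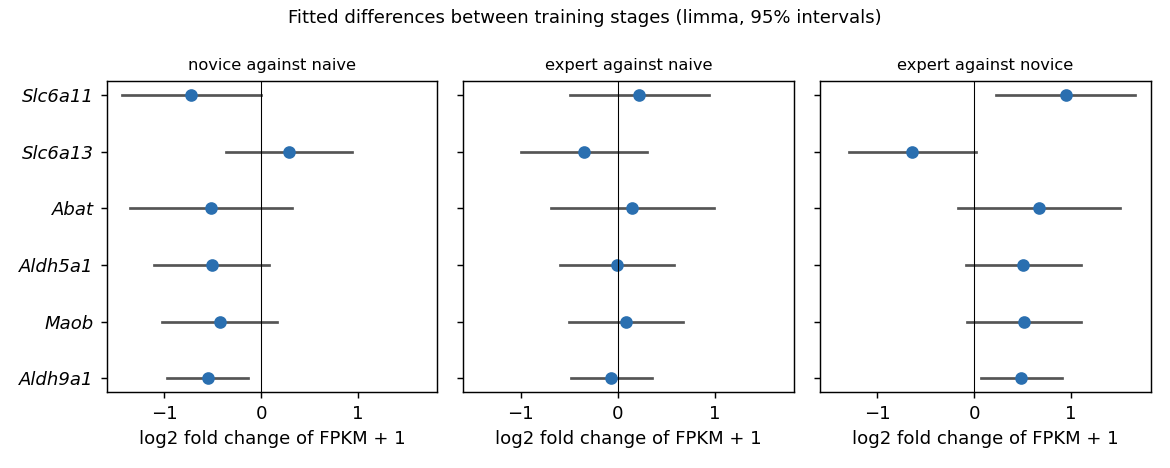
Fitted log2 fold change of FPKM + 1 (horizontal axes) for each gene in the 3 comparisons, from limma with all 18 libraries. Points are estimates and lines 95% intervals; the novice stage is lower for 5 genes, from -0.72 for Slc6a11 to -0.43 for Maob, and intervals for expert against naive all include 0.

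Background class and stage were not balanced, so the values were also read within each class. Slc6a11 had 62.3 to 99.2 FPKM in the 4 naive, 50.5 and 62.7 in the 2 novice and 65.2 to 164 in the 4 expert libraries of the lower class. In the higher class it had 35.8 and 36.2 FPKM in the 2 naive, 27.7 to 35.2 in the 4 novice and 42.1 and 50.5 in the 2 expert libraries. In both classes every expert library was above every novice library, and in the higher class every novice library was also below both naive libraries. The groups here hold 2 or 4 libraries, and the share of all genes that separate so was not counted. In the higher class the mean log2(FPKM + 1) of the 18 astrocyte markers was also higher in every expert library. It was 6.26 and 6.36 in expert and 5.85 to 6.03 in novice libraries. In the lower class it overlapped, at 6.85 in expert 1 and 6.87 in novice 2. With the class as a term in limma the Slc6a11 difference was -0.39 for novice against naive (SE 0.20; unadjusted p = 0.067, adjusted p = 1.0) and 0.61 for expert against novice (SE 0.20; unadjusted p = 0.0064, adjusted p = 0.52). With the log2 background as a covariate the values were -0.51 (SE 0.14; unadjusted p = 0.0019, adjusted p = 0.66) and 0.40 (SE 0.15; adjusted p = 0.98).

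In both comparisons with novice, the differences of Aldh9a1 moved least when the class entered the fit. Its higher class values were 12.4 and 14.7 FPKM among naive, 7.85 to 10.2 among novice and 10.3 and 14.1 among expert libraries, with no overlap between novice and either group. In the lower class they were 9.20 to 21.4, 8.14 and 10.9, and 10.9 to 19.8 FPKM, and novice overlapped both groups. For Aldh9a1 too, the share of all genes without overlap within a class was not counted. With the class as a term the differences were -0.52 for novice against naive (SE 0.19; unadjusted p = 0.013, adjusted p = 1.0 in limma) and 0.45 for expert against novice (SE 0.19; unadjusted p = 0.028, adjusted p = 0.57). With the labelled age as a covariate they fell in size to -0.30 (SE 0.21; unadjusted p = 0.16, adjusted p = 1.0 in limma) and 0.32 (SE 0.19; unadjusted p = 0.11, adjusted p = 0.67). With age in the fit Slc6a11 stood at -0.57 (SE 0.40; unadjusted p = 0.17) and 0.84 (SE 0.37; unadjusted p = 0.036), and Maob at -0.12 (SE 0.30) and 0.31 (SE 0.28). Naive 2, at 21 weeks, was the only library labelled older than 15 weeks. It also had the highest Aldh9a1 and Maob values of the naive group. The part of naive 2 in these fits with age was not tested.

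For Abat the novice difference had opposite signs in the classes. Whether it depended on the class was not tested. In the lower class Abat had 46.9 to 66.9 FPKM among naive, 38.0 and 42.8 among novice and 39.2 to 65.0 among expert libraries, and in the higher class 12.8 and 18.5, 16.2 to 23.9, and 19.99 and 27.1. The higher class novice mean was thus above the naive mean, by 0.35 on the log2 scale (SE 0.24; unadjusted p = 0.18 in limma). The naive side of that difference was only the libraries at 12.8 and 18.5 FPKM. With the class as a term the novice difference of Abat was -0.08 (SE 0.19; adjusted p = 1.0 in limma). With that term Aldh5a1 stood at -0.22 (SE 0.15) and Maob at -0.23 (SE 0.23) for novice against naive, and at 0.22 and 0.32 for expert against novice, each with an adjusted p of 0.67 or more in limma.

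To ask whether a member differed apart from astrocyte transcripts as a whole, its log2(FPKM + 1) was set against the mean of 18 astrocyte genes of the same library. All 18 of these genes, among them the glutamate transporters Slc1a2 and Slc1a3 and the connexin Gja1, were lower in the novice than the naive mean (median -0.59) and higher in expert than novice (median 0.79), with 0 called in limma after adjustment. At an unadjusted p under 0.05, 2 of these 18 astrocyte genes were called in novice against naive and 10 of 18 in expert against novice. The members had 2 of 6 in each, and all genes 4.6% and 10.9%. In a bulk library, fewer astrocytes and less of such RNA per astrocyte cannot be told apart. The relative level of Slc6a11 was -0.75 ± 0.10 log2 units (SD, n = 6) among naive, -0.93 ± 0.13 among novice and -0.75 ± 0.07 among expert libraries. Novice differed from naive by -0.17 (5 of 6 novice libraries below every naive one; exact permutation p = 0.022, adjusted 0.18 over 18 tests), and expert from novice by 0.18 (4 of 6 expert libraries above every novice one; exact permutation p = 0.011, adjusted 0.18). Novice 3, the novice library nearest to the other groups at -0.76, is 1 of the 2 whose sex-linked transcripts go against the label. Without it the differences were -0.21 and 0.21, with no overlap between groups and an exact permutation p of 0.0022, the smallest these samples can give, and adjusted values of 0.019. Novice 3 is also the 1 novice library whose value lies inside the ranges of the other groups. The lack of overlap and the smallest possible p thus follow from leaving it out, and are no separate support. The share of all genes that separate after such a removal was not counted. Without novice 1, the other library against its label, the differences were -0.17 and 0.18 (adjusted exact permutation p = 0.18 and 0.16). With novice 1 and novice 3 both left out they were -0.21 and 0.22 (adjusted exact permutation p = 0.043), and with expert 3 left out as well -0.21 and 0.20 (adjusted exact permutation p = 0.071). The 18 tests are those of the members alone, and both comparisons use the same novice libraries. Against Slc1a2, Slc1a3 and Gja1 alone, with all libraries, they were -0.17 and 0.16 (adjusted exact permutation p = 0.58), and within the lower and higher class -0.13 and -0.23 for novice against naive, 0.17 and 0.18 for expert against novice.

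**Figure D3:**
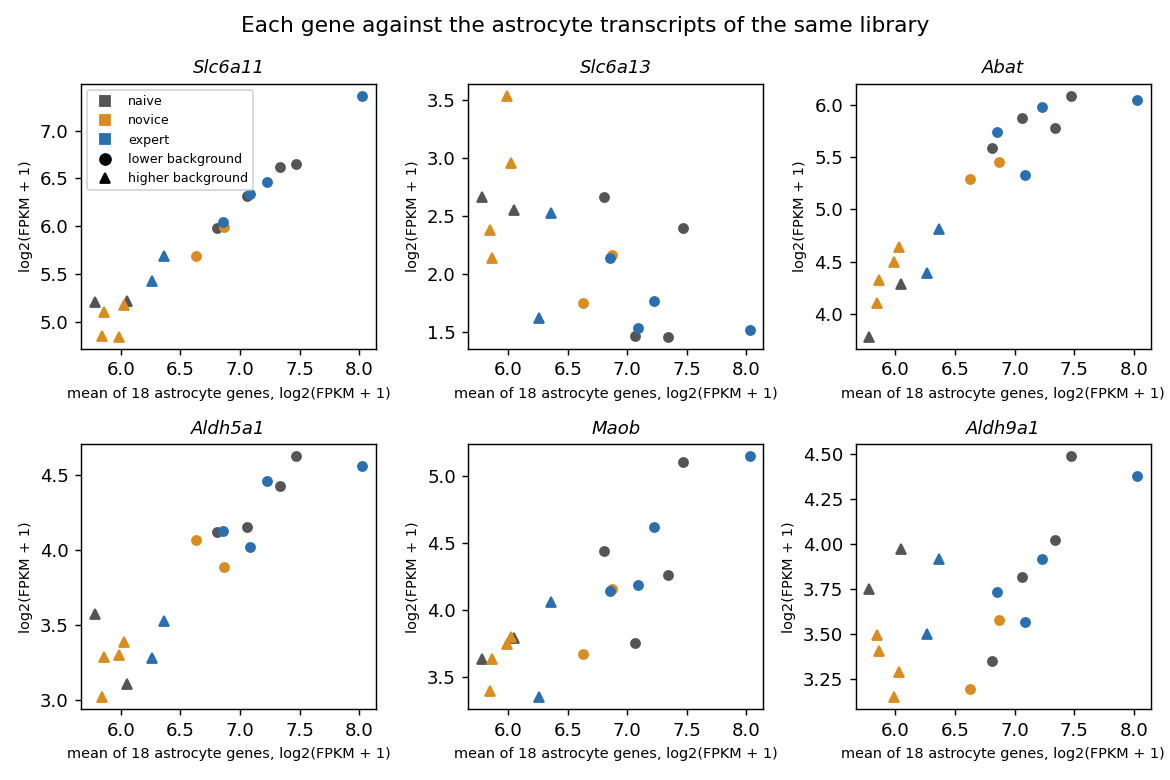
log2(FPKM + 1) of each gene (vertical axes) against the mean of 18 astrocyte genes in the same library (horizontal axes). Each point is 1 of 18 libraries, coloured by stage, with circles for lower and triangles for higher background. Slc6a11 follows the astrocyte mean closely (r = 0.99 among circles, 0.78 among triangles) and Slc6a13 does not (r = -0.35 and -0.24).

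The other members showed no such difference past adjustment. Slc6a13 relative to astrocyte genes differed by 0.84 between novice and naive and by -1.40 between expert and novice (exact permutation p = 0.030, adjusted 0.18). For Abat, Aldh5a1, Maob and Aldh9a1 the relative differences stayed within 0.28 of 0, the smallest p being that of Aldh5a1 in expert against novice (exact permutation p = 0.056, adjusted 0.25). Of 18 such tests 0 passed, and 2 passed, both of Slc6a11, in the sets without novice 3 and without both sex-discordant libraries. Both sets leave out novice 3, the only novice library inside the Slc6a11 ranges of the other groups.

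Among the 10 libraries of the lower class Slc6a11 rose with the astrocyte mean (Pearson r = 0.99, Spearman rho = 0.99, permutation p = 3e-05, adjusted 0.00084 over 28 relations). It remained at r = 0.98 without expert 3 and novice 1, the 2 libraries farthest from the median. In the 8 libraries of the higher class r was 0.78 (rho = 0.69, exact permutation p = 0.023, adjusted 0.054) but 0.12 without expert 4 and expert 5, so that relation rests on these 2. In the lower class the same r was 0.89 for Aldh9a1, 0.81 for Aldh5a1, 0.80 for Maob and 0.74 for Abat (rho 0.90, 0.75, 0.76 and 0.78; adjusted permutation p 0.0026, 0.013, 0.016 and 0.027), and -0.35 for Slc6a13 (rho = -0.36, adjusted permutation p = 0.46). Without expert 3 and novice 1 these were 0.89, 0.86, 0.57, 0.64 and -0.33. In the higher class r was 0.29 for Aldh9a1, 0.19 for Aldh5a1, 0.36 for Maob, 0.77 for Abat and -0.24 for Slc6a13 (rho 0.33, -0.024, 0.40, 0.74 and -0.19; adjusted exact permutation p 0.54, 0.67, 0.46, 0.056 and 0.61), and without expert 4 and expert 5 it was -0.084, -0.29, 0.74, 0.81 and 0.46. None of the 5 passed adjustment there.

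Genes whose levels ran most like each member's were listed by Pearson r over the 18 libraries among the 8854 other genes (8855 for Slc6a13) with a mean of at least 5 FPKM, as a description. The libraries share depth and background, so r is given also within the lower and the higher class. Among the 5 for Slc6a11 were Fermt2 (0.99; 0.98 and 0.95 within the classes), Cd81, Hepacam and Tril, of which Hepacam is a cell adhesion protein typical of astrocytes. For Abat they were Cntn1 (0.98; 0.87 and 0.92), Cpe, Canx, Mtss1l and S100b, and for Aldh5a1 Vegfb (0.98; 0.88 and 0.91), Gprc5b, Atp5a1, Mtss1l and Chst2. For Maob they were Cnn3 (0.92; 0.88 and 0.66), Calr, Tmem106b, Acadsb and Sall2, and for Aldh9a1 Hes5 (0.83; 0.87 and 0.70), Atox1, Kdelr1, Prkd1 and Ilvbl. Those of Slc6a13 were Cyp2e1 (0.86; 0.81 and 0.86), Cml2, Cyp2d9, Mbl2 and Ahsg, of which Cyp2e1, Cyp2d9, Mbl2 and Ahsg are best known from liver.

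The members have partners that do the same chemistry. Slc6a12, the betaine and GABA transporter, stood at 3.63 ± 1.66, 3.88 ± 3.01 and 2.64 ± 2.64 FPKM in naive, novice and expert, near the receptor gene background (1.54 times it in the median library).

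Maoa, the other monoamine oxidase, did not run like Maob. Its lowest, median and highest values were 97.8, 151 and 399 FPKM among naive, 171, 302 and 322 among novice and 40.6, 161 and 335 among expert libraries, above Maob in 18 of 18 libraries. Maoa stood at 90.6 to 146 times the receptor gene background in 17 libraries and at 298 times in expert 3. It rose with the log2 background within the lower class (Pearson r = 0.95, rho = 0.90, permutation p = 0.00037, adjusted 0.0026; r = 0.77 without expert 3 and expert 1) and within the higher class (r = 0.84, rho = 0.88, exact permutation p = 0.0066, adjusted 0.018; r = 0.74 without expert 5 and novice 6). Maob fell with it in the lower class (r = -0.71, rho = -0.83, adjusted permutation p = 0.016; r = -0.68 without expert 3 and expert 1). In the higher class the relation of Maob did not pass (r = -0.62, rho = -0.43, adjusted exact permutation p = 0.18; r = -0.11 without expert 5 and novice 6). Slc6a11 also fell with the background in the lower class (r = -0.85, rho = -0.77, adjusted permutation p = 0.016). Without expert 3 and expert 1 that r was -0.62. In the higher class Slc6a11 did not pass (r = -0.40). Abat fell with the background in the higher class (r = -0.90, rho = -0.95, adjusted exact permutation p = 0.0096; r = -0.89 without expert 5 and novice 6) but did not pass in the lower class (r = -0.46). The remaining members did not pass in either class. The ratio of Maob to Maoa ranged from 0.0274 to 0.0599 in the higher class and from 0.0618 to 0.847 in the lower, with no overlap. The classes were cut on the background, with which Maoa rose, so this separation is no separate result. The share of other genes whose ratio to Maoa separates so was not counted. The part of the background in the Maoa values was not tested.

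**Figure D4:**
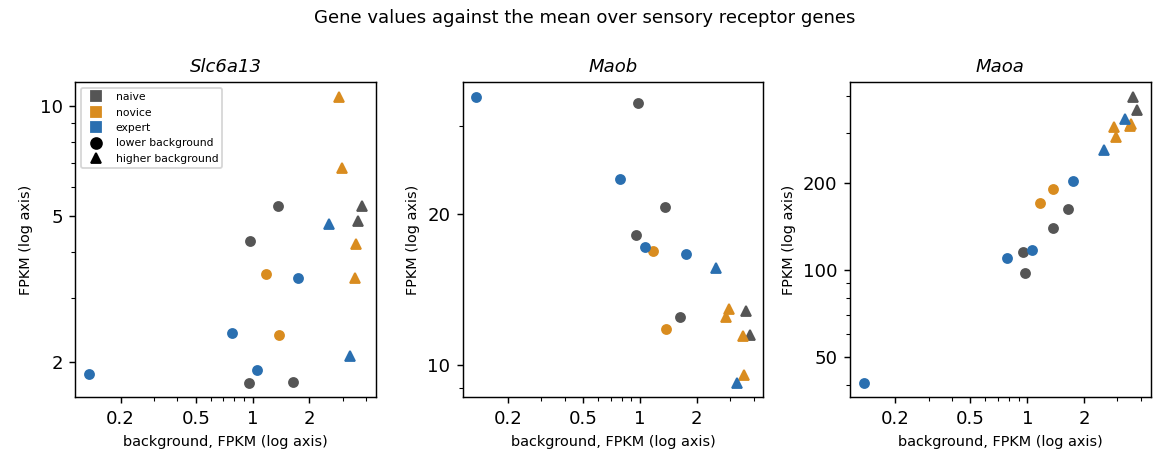
FPKM of Slc6a13, Maob and Maoa (vertical axes, log scale) against the mean FPKM over 1461 sensory receptor genes (horizontal axes, log scale) in 18 libraries, coloured by stage. Maoa climbs with the background, from 40.6 in expert 3 to 399 in naive 5. Maob is highest in expert 3 (34.4) and lowest in expert 4 (9.19), and its fall with the background passed adjustment in the lower class only.

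The rest of the pathway was read from a list of 34 genes of GABA transport, GABA synthesis, polyamine and putrescine metabolism and the neighbouring Krebs cycle steps. All 34 were tested; 13 were higher and 21 lower in novice than naive, 17 and 17 in expert against naive, and 17 and 17 in expert against novice. Of these 0 passed the adjusted threshold in limma, and 0, 1 and 5 had an unadjusted p under 0.05, where 4.6%, 2.86% and 10.9% of all genes did. Lower means were held by 43%, 56.1% and 59.6% of all genes. The median log2 fold change of the list was -0.06, -0.0048 and -0.03, against 0.07, -0.05 and -0.14 over all genes. By group, 4 of 4 transport genes, 3 of 3 other aldehyde dehydrogenases and 5 of 7 Krebs cycle neighbours were lower in the novice mean of log2(FPKM + 1), against 7 of 17 genes of the polyamine route; Slc6a12, at -0.06, was lower on that scale only.

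The gene of this list with the smallest p in both expert comparisons was Slc6a6, the taurine transporter, which also carries GABA weakly. Slc6a6 had 32.0, 34.0 and 39.1 FPKM (lowest, median, highest) among naive, 27.9, 32.0 and 46.9 among novice and 35.4, 49.5 and 76.5 among expert libraries. The log2 fold change was 0.58 for expert against naive (SE 0.20; unadjusted p = 0.0099, adjusted p = 1.0 in limma) and 0.62 against novice (SE 0.20; unadjusted p = 0.0064, adjusted p = 0.45), and the groups overlapped. Endothelial markers, whose cells carry Slc6a6 too, summed to 139 to 198, 99.2 to 222 and 157 to 397 FPKM in naive, novice and expert libraries. All 7 of these markers were higher in the expert mean than in the naive (median 0.64) and the novice mean (median 0.72), with 5 of 7 at an unadjusted p under 0.05 in each and 0 after adjustment in limma. Of all genes, 2.86% and 10.9% had an unadjusted p under 0.05 in these comparisons, in either direction. The part of endothelial cells in the Slc6a6 values was not tested.

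Smox, spermine oxidase, differed by -0.59 for novice against naive and 0.81 for expert against novice (unadjusted p 0.12 and 0.038 in limma) and had 17.2 to 62.8 FPKM among naive, 8.95 to 32.7 among novice and 16.9 to 59.1 among expert libraries. Suclg1, a subunit of succinyl-CoA ligase, differed by -0.60 for novice against naive (unadjusted p = 0.069). Agmat, agmatinase, which yields putrescine, differed by -0.74 for expert against naive and -1.06 against novice (unadjusted p 0.079 and 0.015) at means of 3.30, 4.53 and 1.65 FPKM in naive, novice and expert, a level near the background. Oaz2, an ornithine decarboxylase antizyme, differed by 0.42 for expert against naive (unadjusted p = 0.10), and Slc32a1, the vesicular GABA transporter of neurons, by -0.51 in novice and -0.61 in expert against naive (unadjusted p 0.12 and 0.070). Each of these had an adjusted p of 0.45 or more in limma.

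The glutamate decarboxylases, which make GABA in interneurons, had means below those of Slc6a11 and Abat in each group. Gad1 stood at 6.10 ± 1.46 FPKM among naive, 5.29 ± 1.53 among novice and 4.95 ± 1.63 among expert libraries, and Gad2 at 8.07 ± 2.25, 10.3 ± 2.09 and 7.54 ± 3.08 FPKM. Their log2 fold changes were -0.18 and 0.33 for novice against naive and -0.10 and -0.50 for expert against novice (adjusted p of 0.45 or more in limma). Summed over 7 interneuron markers the level was 34.2 to 74.8 FPKM among naive, 33.1 to 82.8 among novice and 26.4 to 53.8 among expert libraries. Slc6a11 by itself exceeded Gad1 and Gad2 in every library. The mean of Gad2 was above that of Aldh9a1 in novice libraries (9.25 FPKM) and below it in naive and expert libraries (14.4 and 13.6 FPKM).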

How the data were processed

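RNA of motor cortex astrocytes was recovered by proteinase K digestion and a silica column and made into stranded total RNA libraries (SMARTer kit, Illumina HiSeq), per the labels' protocols. TopHat, Cufflinks and mouse build mm9 are named per the submitters' processing notes; versions, annotation, scaling between libraries and use of strand were not given in the sources used here. FPKM, made by the authors, fill the deposited table, although its title speaks of normalized counts: of low values of 126 olfactory receptor genes with a single transcript, 69.6% to 79.7% per library lay within 0.1 of whole multiples of a step in 17 libraries, and 25.8% in expert 3. That step, 0.604 to 1.88 FPKM for 1 fragment on 1 kb, gave the approximate fragment counts, which bear counting error; read totals are unknown. Of 23951 entries, 27 with names turned into dates were left out.

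The 21745 genes that reached 1 FPKM in 6 or more of 18 libraries were fitted as log2(FPKM + 1) with limma 3.58.1 in R 4.3.3 (mean-variance trend, 1 mean per group, all 18 libraries), two-sided, with Benjamini-Hochberg adjustment over all genes and a threshold of 0.05. Levels relative to 18 astrocyte genes were compared by two-sided exact permutation tests over 924 splits, adjusted over 18 tests. The limma step was tested on simulated data. The members, the pathway list of 34 genes, the marker lists and the tests were chosen with earlier results of these data known, and the 6 members were selected by name. Of the pathway list, the 4 genes with the smallest p in each comparison are named, and always Slc6a12, Gad1, Gad2 and Maoa; some genes that the rules for naming select are not reported here. The background excluded 6 receptor genes with a mean over 20 FPKM. The split into classes of background was made after the values were seen. Promoter sequences and coordinates are those of RefSeq for GRCm38.p6; no coordinates of mm9 are given. Replicate numbers of the labels were not treated as pairs in the main fit.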

Additional observations from a re-analysis of the deposited data

Results flagged for a closer look

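In 1 of 36 sets of 6 libraries tested for a value far from the others, naive 6 stood apart: its Aldh5a1 level relative to the 18 astrocyte genes was -2.20 log2 units, where the other naive libraries lay between -2.94 and -2.69. The gap was 0.66 of the whole range of the 6 libraries, above Dixon's 95% critical value. Chance flags about 1 in 20 such sets. Naive 6 has the highest background of all libraries (3.81 FPKM) and the lowest Abat value (12.8 FPKM), and their part in this value was not tested.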

How the results depend on the processing

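The number of members past the threshold was 0 under all 35 settings run for each comparison, and 0 under the 34 run for the F test; Slc6a13 was not tested with the filter of 5 FPKM. The number of relative levels passing was 0 in 24 of 26 settings and 2 without novice 3 and without both libraries against the labelled sex. The replicate numbers were not treated as pairs in the main fit. Deviations of same-numbered libraries correlated at -0.36 to 0.46, over 0.1 in 10 of 18 pairs, and 1 of 18 libraries correlated best with its own number. Libraries numbered 2 correlated at 0.30 to 0.46 and those numbered 5 at 0.20 to 0.33, while each other number had pairs of both signs. Libraries numbered 1 and 2 were all of the lower class and those numbered 5 all of the higher. Whether equal numbers share a batch was not tested. With the replicate number as a block 0 members passed, and Slc6a11 expert against novice stood at 0.95 (adjusted p = 0.37 in limma). For novice against naive the direction of 4 members held in all alternatives; Slc6a13 was -0.039 in the lower class alone and Abat 0.35 in the higher class alone, both chosen after the values were seen. Sizes moved by over 1.5 times in several settings: with array weights Abat was -0.96 and Slc6a13 0.55, with age Maob was -0.12 and Aldh9a1 -0.30, with the background as a covariate Abat was -0.30 and Maob -0.28, and without both libraries against the labelled sex Slc6a13 was 0.56. Expert against novice kept its direction for all 6 members in all alternatives run, but with the background as a covariate Slc6a11 was 0.40, Abat 0.10, Aldh5a1 0.11, Maob 0.12 and Slc6a13 -0.41, and with age Maob was 0.31 and Aldh9a1 0.32. For expert against naive, where values lie near 0, the sign turned for 5 members. With trimmed mean of M values factors Aldh5a1 was 0.080 and Aldh9a1 0.021, with quantile normalization Aldh5a1 0.0064, and with age as a covariate Aldh5a1 0.028 and Aldh9a1 0.017. With the background as a covariate Slc6a11 was -0.11, Abat -0.19 and Maob -0.16. With array weights Abat was -0.11, in the lower class alone Abat -0.055, and in the higher class alone Aldh5a1 0.060 and Maob -0.0099. Without expert 3, novice 1 and novice 3 Slc6a11 was -0.0042 and Maob -0.092. Leaving out 1 library at a time gave -0.0042 to 0.38 for Slc6a11, -0.14 to 0.35 for Abat, -0.18 to 0.14 for Aldh5a1, -0.092 to 0.28 for Maob and -0.18 to 0.052 for Aldh9a1. The cause was not tested. Levels relative to astrocyte genes turned as follows for novice against naive: without both libraries against the labelled sex, and with expert 3 left out too, Aldh5a1 -0.035 and Aldh9a1 0.044; in the lower class alone Abat -0.038 and Maob -0.050; in the higher class alone Aldh5a1 -0.11 and Maob -0.084. For expert against naive Slc6a11 was -0.0068 against Slc1a2, Slc1a3 and Gja1, -0.050 in the higher class alone and -0.011 without those 3 libraries; Abat was 0.17 in the higher class alone and 0.013 without those 3 libraries; Maob was 0.0069 in the lower class alone. For expert against novice Maob was 0.057 in the lower class alone and Abat 0.0015 without those 3 libraries. Leaving out 1 library gave, for novice against naive, -0.061 to 0.099 for Abat, -0.00082 to 0.15 for Aldh5a1, -0.024 to 0.22 for Maob and -0.12 to 0.16 for Aldh9a1, and for expert against naive -0.011 to 0.041 for Slc6a11 and -0.16 to 0.013 for Abat. Precision is limited by 6 libraries per group; Slc6a13 rests on few fragments, and the part of this in its error was not tested.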
